A study of Arabidopsis thaliana with 24 samples.

Results

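Alpha-expansins were followed in roots and shoots of Arabidopsis thaliana seedlings during 3 h of osmotic shock. The set holds 9 genes chosen by their locus codes: EXPA1 (AT1G69530), EXPA3 (AT2G37640), EXPA4 (AT2G39700), EXPA5 (AT3G29030), EXPA6 (AT2G28950), EXPA8 (AT2G40610), EXPA10 (AT1G26770), EXPA11 (AT1G20190) and EXPA15 (AT2G03090). They are 9 of 14557 genes in the deposited count table. The rule uses locus codes alone, but the genes were chosen with earlier results of these data known. Of another 17 alpha-expansins listed, 10 were in the table, among them EXPA7 and EXPA18 of root hairs.

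Expansins are secreted wall proteins that let cellulose and xyloglucan slip past each other, so that a wall under turgor extends without being cut. They act best at acid pH, which plasma membrane proton pumps provide at the wall. In Arabidopsis the alpha family has many members used in different organs, and growth hormones such as auxin, gibberellin and brassinosteroid control several of them. EXPA10 is known for its part in leaf growth and pedicel abscission, EXPA1 for wall loosening in guard cells, and EXPA5 for brassinosteroid-dependent growth.

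All samples carried the genotype written ulox or µlox, a name the labels leave undefined, and seedlings were 7 d old. The 8 groups of 3 libraries (A, B and C) were shoot and root after 1 h in water and after 1, 2 or 3 h in 30% PEG (polyethylene glycol, an osmotic agent) at -2.0 MPa. Each replicate was a pool of 30 to 50 seedlings, divided into root and shoot after treatment. No wild type was analysed here, so every comparison lies within this line. Water was given for 1 h alone by the source names, whereas the titles call it time 0. The PEG libraries of 2 and 3 h therefore differ from water also in hours in liquid, and may differ in time of day. These cannot be told apart from PEG. If the titles hold, the same limit applies to the PEG libraries of 1 h. It also applies between PEG times, since there was no water group of 2 or 3 h. The same 3 water libraries of a tissue serve all its PEG times.

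MARS-seq counted tags at the 3′ ends of transcripts, with 1203312 to 6090852 counts per shoot library and 1597302 to 7029587 per root library. Levels below are TMM-scaled CPM over all 24 libraries, each count set relative to its library's scaled total, and they compare a gene between groups, not one gene with another. In shoot, 5 green tissue markers summed to 63950 to 90460 CPM and in root to 274.1 to 818.4, so the highest root value was 1.28% of the lowest shoot value. The 4 root markers analysed (CASP1, SHR, PHO1 and NRT2.1) summed to 298.4 to 746.2 CPM in root and 19.11 to 43.05 in shoot, although NRT2.1 alone had 39 counts in root and 42 in shoot. The root water B library stood apart, with the fewest genes detected (11638) and a TMM factor of 0.8216. The spread between replicates, as a biological coefficient of variation, was 17.2% in shoot and 34.2% in root.

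The data do not go against the description of the set as expressed outside root hairs. Each of the 9 genes had counts in all 12 shoot libraries, where 5 root hair markers (EXPA7, EXPA18, COBL9, RHD6 and PRP3) summed to 0 to 4.739 CPM. In root these markers summed to 151 to 307.6 CPM in water and 47.78 to 77.29 in PEG, with no overlap. The root means of EXPA7, EXPA18, COBL9 and PRP3 were lower at each PEG time than in water. RHD6 went the other way, with 4.811 CPM in water and 9.397, 7.629 and 7.965 at 1, 2 and 3 h, and its groups overlapped. Whether the difference in the sum has a part in the root values below was not tested. In these bulk tissues fewer cells of a type and less RNA per cell cannot be told apart.

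In shoots exposed to PEG, EXPA10 rose at each time, and EXPA1, EXPA11 and EXPA3 rose by smaller folds. EXPA6 fell at 1 and 3 h. EXPA4 and EXPA5 were not called at any time. Tests were edgeR's quasi-likelihood test on counts, two-sided, and a gene is called higher or lower at a Benjamini-Hochberg adjusted p under 0.05 over all genes tested in that comparison. By this rule 3 of the 9 were higher, 1 lower and 5 not called after 1 h, when 7.2% of all 9207 genes tested were called higher and 5.16% lower. After 2 h 4 were higher, 0 lower and 5 not called, beside 7.31% higher and 3.41% lower of all genes. After 3 h 5 were higher, 1 lower and 3 not called, beside 10.4% and 6.7%. The median log2 fold change of the 9 was 0.11, 0.49 and 0.86 at the 3 times, and that of all genes tested was -0.004, -0.001 and -0.017.

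**Figure D1:**
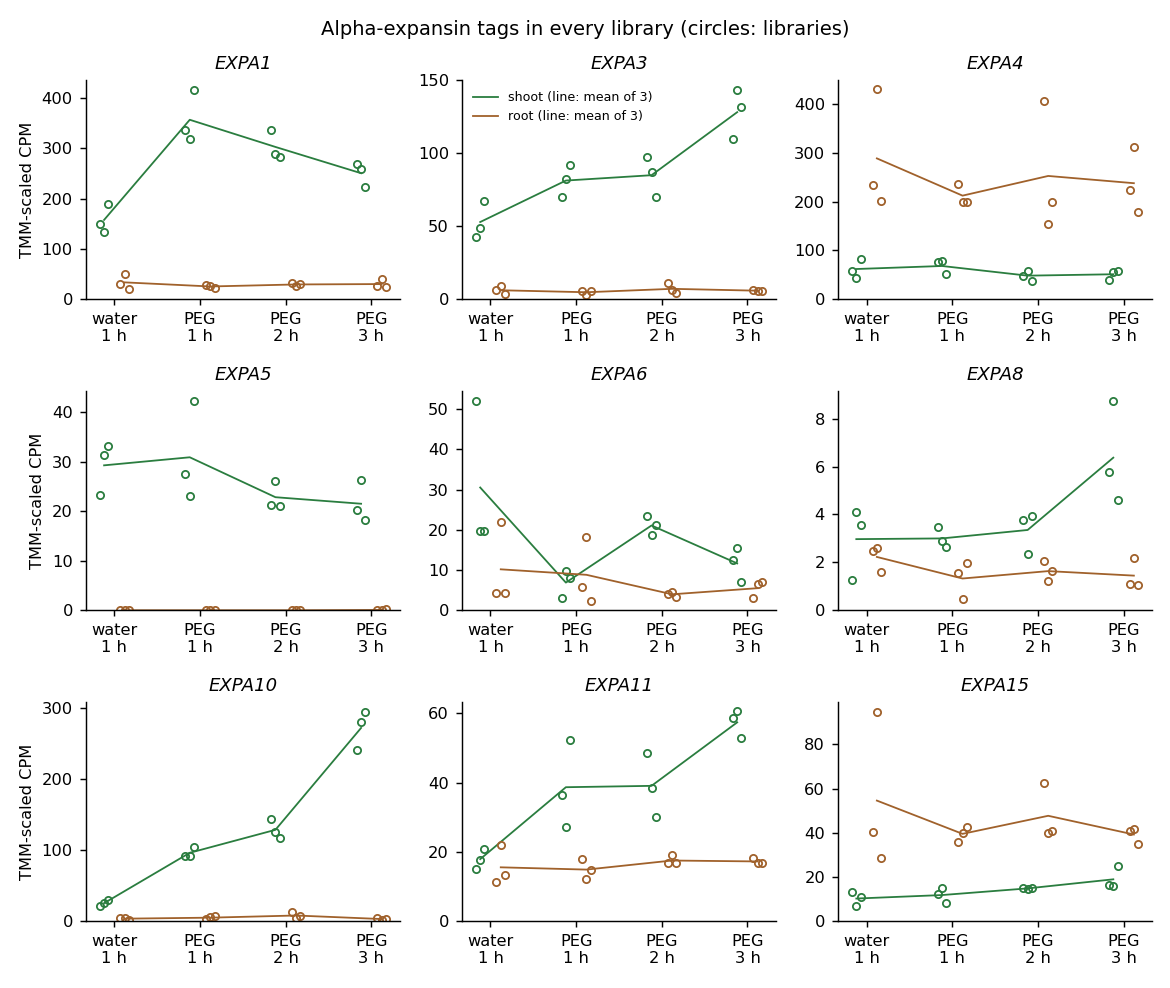
Level of each alpha-expansin in every library, as TMM-scaled CPM on a linear axis that starts at 0 and differs between panels. Circles are single libraries, green for shoot and brown for root, and lines join the means of 3. EXPA10 in shoot climbed from 25.6 CPM in water to 271.5 at 3 h, EXPA4 and EXPA15 were higher in root than in shoot in water, and EXPA5 had almost no counts in root.

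EXPA10 showed the strongest change of the 9. In shoot its level was 21.58, 25.2 and 30.02 CPM in water A, B and C, and 92.36, 91.88 and 104.6 after 1 h of PEG. It was 143.4, 124.8 and 117.3 CPM after 2 h and 240.8, 280.3 and 293.3 after 3 h. The 4 groups did not overlap, and the order ran with time. Against water the log2 fold change was 1.83 (SE 0.159, adjusted p = 2.658e-07) at 1 h, 2.34 (adjusted p = 8.141e-09) at 2 h and 3.41 (SE 0.161, adjusted p = 4.389e-11) at 3 h. The 3 h p ranked 6 among 9207 genes. Leaving out any 1 library kept each of these calls, with a 3 h log2 fold change between 3.31 and 3.52.

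The climb of EXPA10 could also be read between PEG groups, without the water libraries. From 1 to 3 h its log2 fold change was 1.58 (95% interval 1.28 to 1.88, adjusted p = 1.407e-06), one of 2 of the 9 called higher where 2.67% of all genes were called higher and 1.96% lower. From 2 to 3 h it was 1.08 (adjusted p = 0.0005991), the 1 call among the 9, where 0.391% of genes were called higher and 0.0326% lower. That call was lost when shoot and root shared 1 estimate of spread (adjusted p = 0.317). From 1 to 2 h the log2 fold change was 0.50 (interval 0.21 to 0.80, adjusted p = 0.06807), and it passed the threshold without shoot PEG 1 h C (0.60, adjusted p = 0.04208) and with library totals in place of TMM (0.67, adjusted p = 0.01644). Between 1 and 2 h edgeR called 0 of the 9, where 1.28% of genes were called higher and 0.413% lower. EXPA6 and EXPA10 had an unadjusted p under 0.05 there, and DESeq2 called these 2. The comparisons of neighbouring times were added after the levels had been seen. Between PEG groups the hours in liquid differ too, and time of day may, so neither can be told apart from longer PEG.

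EXPA11 had the second largest rise at 3 h. Its shoot level was 15.24, 17.71 and 20.93 CPM in water and 36.6, 27.22 and 52.29 after 1 h. It was 48.63, 38.61 and 30.05 after 2 h and 58.53, 60.81 and 52.88 after 3 h. Each PEG library was above each water library, while the 1 h and 2 h groups overlapped. The log2 fold change was 1.02 (SE 0.25, adjusted p = 0.01137) at 1 h, 1.14 (adjusted p = 0.00397) at 2 h and 1.68 (adjusted p = 7.423e-05) at 3 h. Leaving out shoot water A ended the 1 h call (0.94, adjusted p = 0.05365). From 1 to 3 h the 2 groups did not overlap and the log2 fold change was 0.66 (interval 0.18 to 1.14, adjusted p = 0.1193), a value that passed the threshold without shoot PEG 1 h C (0.97, adjusted p = 0.007686) and with library totals in place of TMM (0.73, adjusted p = 0.04544).

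EXPA1 followed another course in shoot, with its highest mean at 1 h. It stood at 149.4, 133.5 and 190 CPM in water, 335.9, 317.8 and 416.6 after 1 h, 337.4, 287.8 and 283 after 2 h, and 268.7, 259.5 and 223.2 after 3 h. All 9 PEG libraries were above all 3 water libraries, the 1 h and 2 h groups overlapped, and the 3 h group lay below both. The log2 fold change against water was 1.10 (SE 0.171, adjusted p = 0.0002304), 0.95 (adjusted p = 0.0007249) and 0.68 (adjusted p = 0.008928) at the 3 times. Leaving out shoot PEG 3 h A ended the 3 h call, at 0.57 with an adjusted p of 0.05125, and so did a fit of both tissues (0.66, adjusted p = 0.0976). From 1 to 3 h the log2 fold change was -0.42 (interval -0.78 to -0.07, adjusted p = 0.178), which was not called.

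EXPA3 was highest at 3 h. Its shoot level was 42.32, 49.05 and 67.14 CPM in water, 69.71, 82.19 and 91.84 after 1 h, 97.63, 87.36 and 69.76 after 2 h, and 109.4, 143.3 and 131.6 after 3 h. The 3 h libraries were above all others, the 1 h and 2 h groups overlapped, and water C at 67.14 was close to the lowest PEG libraries. Against water the log2 fold change was 0.55 at 1 h (interval 0.17 to 0.93, adjusted p = 0.05461), which was not called, 0.69 at 2 h (adjusted p = 0.01466) and 1.29 at 3 h (SE 0.181, adjusted p = 3.809e-05). From 1 to 3 h it was 0.74 (adjusted p = 0.01691).

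The smaller EXPA3 differences were not called under every setting. The 1 h value was called without shoot PEG 1 h A (0.68, adjusted p = 0.02898) or water C (0.73, adjusted p = 0.01919). The 2 h call was lost on leaving out water A (0.56, adjusted p = 0.09082), water B (0.66, adjusted p = 0.05494), PEG 2 h B (0.67, adjusted p = 0.05588) or PEG 2 h A (0.61, adjusted p = 0.08254). The call from 1 to 3 h was lost without PEG 3 h C (0.73, adjusted p = 0.05666), PEG 3 h B (0.66, adjusted p = 0.1003) or PEG 1 h A (0.61, adjusted p = 0.09132). In the fit of both tissues neither was called, with adjusted p = 0.2348 at 2 h and adjusted p = 0.3843 from 1 to 3 h. The 3 h call against water held without any 1 library and under each other setting run.

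EXPA15 was called at 3 h alone, where its shoot level was 16.31, 15.83 and 24.9 CPM against 13.12, 6.812 and 11.06 in water. The groups did not overlap, and 1 library, PEG 3 h C, stood above the rest. The log2 fold change was 0.86 (interval 0.29 to 1.44, adjusted p = 0.03577), after 0.11 at 1 h and 0.49 at 2 h. The call was lost without PEG 3 h C (0.62, adjusted p = 0.2427), PEG 3 h A (0.90, adjusted p = 0.0508), water B (0.70, adjusted p = 0.1219) or water C (0.86, adjusted p = 0.07101). DESeq2 (adjusted p = 0.07349), library totals (adjusted p = 0.08264) and a fit of both tissues (adjusted p = 0.1777) did not call it.

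EXPA6 was the only one of the 9 called lower in shoot. Its level was 52.06, 19.76 and 19.75 CPM in water, 3.05, 9.685 and 7.91 after 1 h, 23.42, 18.72 and 21.11 after 2 h, and 12.47, 15.41 and 7.071 after 3 h. Water A was more than the sum of water B and C, the 1 h and 3 h libraries were all below water, and the 2 h libraries overlapped water. The log2 fold change was -2.19 (SE 0.454, adjusted p = 0.00567) at 1 h, -0.55 (interval -1.40 to 0.30, adjusted p = 0.5318) at 2 h and -1.48 (SE 0.451, adjusted p = 0.03596) at 3 h.

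The 1 h call of EXPA6 held without any 1 library, with a log2 fold change between -2.58 and -1.49, and was lost in the fit of both tissues (adjusted p = 0.05227). Without water A it was -1.49 at 1 h, still called, and -0.79 at 3 h (adjusted p = 0.1934), no longer called. The 3 h call was also lost without PEG 3 h A (-1.55, adjusted p = 0.06022) or PEG 3 h C (-1.10, adjusted p = 0.1485), in the fit of both tissues (-1.43, adjusted p = 0.1917) and without the filter on low counts (-1.47, adjusted p = 0.05953). All 3 libraries at 2 h were above all 3 at 1 h, with a log2 fold change of 1.64 (interval 0.67 to 2.61, adjusted p = 0.07363), which DESeq2 (adjusted p = 0.01358) and library totals (adjusted p = 0.04234) called.

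The other 3 genes were not called in shoot. EXPA4 had means of 61.86 CPM in water and 68.09, 48.23 and 51.09 over the PEG times, and EXPA5 had 29.26, then 30.89, 22.83 and 21.51, with overlapping groups in each case. At 3 h their log2 fold changes were -0.26 (interval -0.71 to 0.19) and -0.44 (interval -0.98 to 0.10), and both intervals include 0. EXPA8, which had 123 counts over 12 shoot libraries, stood at 1.27, 4.087 and 3.554 CPM in water and 5.757, 8.747 and 4.611 at 3 h. The groups did not overlap and the log2 fold change was 1.14 (interval 0.18 to 2.099, adjusted p = 0.09855), which was not called at this depth.

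**Figure D2:**
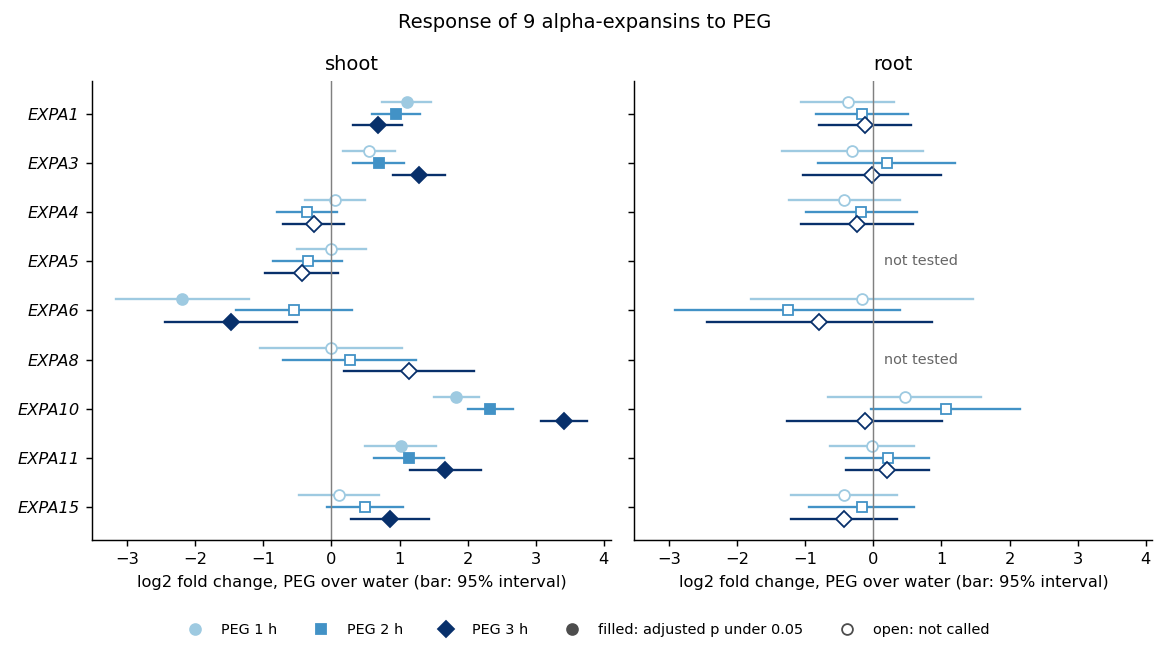
Log2 fold change of PEG over water for the 9 genes in shoot (left) and root (right), with 95% intervals as bars. Circles, squares and diamonds are 1, 2 and 3 h, filled where the adjusted p is under 0.05. Filled symbols occur in shoot alone, with EXPA10 at 3.41 at 3 h and EXPA6 at -2.19 at 1 h as the extremes.

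In root none of the 7 genes tested was called at 1, 2 or 3 h, beside 0.472%, 0.185% and 0.226% of 9751 genes called in either direction. At an unadjusted p under 0.05 the edgeR count was also 0 at each time, and DESeq2 called 0. From 1 to 3 h in root edgeR called 0 of the 7, as of all 9751 genes (0%), with 0 of the 7 at an unadjusted p under 0.05 and 0 by DESeq2. EXPA5 and EXPA8 had too few root counts to be tested. EXPA10 stood at 4.233, 5.191 and 2.126 CPM in root water and 13.15, 4.761 and 6.978 after 2 h, with overlap between the groups. Its log2 fold change there was 1.06 (interval -0.03 to 2.16, adjusted p = 0.6453), and it was 0.46 at 1 h and -0.13 at 3 h. For EXPA1 the root means were 33.36 ± 15.02 CPM in water (SD, n = 3) and 25.21 ± 3.249, 29.22 ± 3.595 and 30 ± 8.426 in PEG, with a 1 h log2 fold change of -0.38 (interval -1.06 to 0.30).

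EXPA4 and EXPA15, the pair with higher levels in root than in shoot, varied widely among root water libraries. EXPA4 was 235.3, 430.9 and 200.9 CPM in water and averaged 212.5 ± 21.45, 253 ± 134.5 and 238.1 ± 68.18 over the PEG times (SD, n = 3). EXPA15 was 40.34, 94.74 and 28.7 in water and averaged 39.56 ± 3.365, 47.72 ± 12.79 and 39.27 ± 3.826. In both genes the high water value was root water B, the library that stood apart. Without it the log2 fold change of EXPA15 at 3 h went from -0.43 to 0.19, and that of EXPA4 from -0.24 to 0.14, with no call either way. EXPA4 was also high in root PEG 2 h A (406.1 CPM, TMM factor 0.9951) and PEG 3 h B (312.4 CPM, factor 0.9507). The spread depends on the scaling. With library totals the SD in root water was 59.97 CPM for EXPA4 (124.1 with TMM) and 22.54 for EXPA15 (35.25 with TMM). Root EXPA11 kept to a narrow range of group means, 14.94 to 17.56 CPM, and its 3 h log2 fold change was 0.21 (interval -0.41 to 0.82).

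The change of root minus the change of shoot was tested directly in 1 fit of all 24 libraries. At 1 h EXPA1 alone of the 9 was lower (-1.57 on the log2 scale, interval -2.30 to -0.84, adjusted p = 0.02554), where 1.09% of 10967 genes were lower and 0.237% higher. EXPA10 (-1.44), EXPA11 (-1.105) and, in the other direction, EXPA6 (1.91) had an unadjusted p under 0.05 at 1 h and were not called. At 2 h edgeR called 0 of the 9, beside 1.2% of all genes, with 3 (EXPA1, EXPA10 and EXPA11) at an unadjusted p under 0.05 and 0 called by DESeq2. At 3 h EXPA10 (-3.53, interval -4.60 to -2.47, adjusted p = 0.0001171) and EXPA11 (-1.48, interval -2.27 to -0.69, adjusted p = 0.03291) were lower, beside 2.02% lower and 0.574% higher. At 3 h EXPA15 (-1.33, adjusted p = 0.1947) and EXPA3 (-1.31, interval -2.27 to -0.35, adjusted p = 0.1816) were not called. Nor were EXPA8 (-1.905, interval -3.40 to -0.41, adjusted p = 0.2277) and EXPA1 (-0.83, adjusted p = 0.3079). All of these had an unadjusted p under 0.05, and a tissue difference in their 3 h response was not shown.

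EXPA10 kept this difference without any 1 library, with values from -3.93 to -3.34, and under each other setting run. The EXPA1 call was lost without root PEG 1 h B (-1.56, adjusted p = 0.06657), root water B (-1.20, adjusted p = 0.07842), shoot PEG 1 h C (-1.40, adjusted p = 0.08578), shoot water A (-1.52, adjusted p = 0.08604) or shoot water B (-1.46, adjusted p = 0.07515). It was also lost with library totals (-1.04, adjusted p = 0.07306). The EXPA11 call was lost without 11 of 12 libraries in turn, all but root water A, with values from -1.55 to -1.17 and adjusted p from 0.05175 to 0.1322. It was also lost with library totals (-1.20, adjusted p = 0.105), without the filter on low counts (-1.42, adjusted p = 0.06801) and with the letter as a block (-1.48, adjusted p = 0.05132).

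Root and shoot of the same letter within a treatment were taken as 1 pool of seedlings. A fit with that pool as a block left EXPA10 at 3 h as the 1 call among the 9. With the pool as a block EXPA1 at 1 h had -1.52 (adjusted p = 0.1116) and EXPA11 at 3 h had -1.46 (adjusted p = 0.07836). Over all genes this blocked fit called 59 at 1 h and 64 at 2 h, where 146 and 132 were called without it.

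In water alone, root and shoot differed for 7 of the 9 genes. EXPA4 and EXPA15 were higher in root, EXPA1, EXPA3, EXPA5, EXPA6 and EXPA10 were lower, and EXPA8 and EXPA11 were not called, where 27.1% of all genes were higher and 26.2% lower. The root mean was 467% of the shoot mean for EXPA4 and 528% for EXPA15. It was 21.2% for EXPA1, 15% for EXPA10, 11.5% for EXPA3 and 33.4% for EXPA6. Root and shoot libraries did not overlap for EXPA1, EXPA3, EXPA4, EXPA5, EXPA10 and EXPA15, and overlapped for EXPA6. The share of all genes without overlap was not counted, so this describes single genes and not the set.

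**Figure D3:**
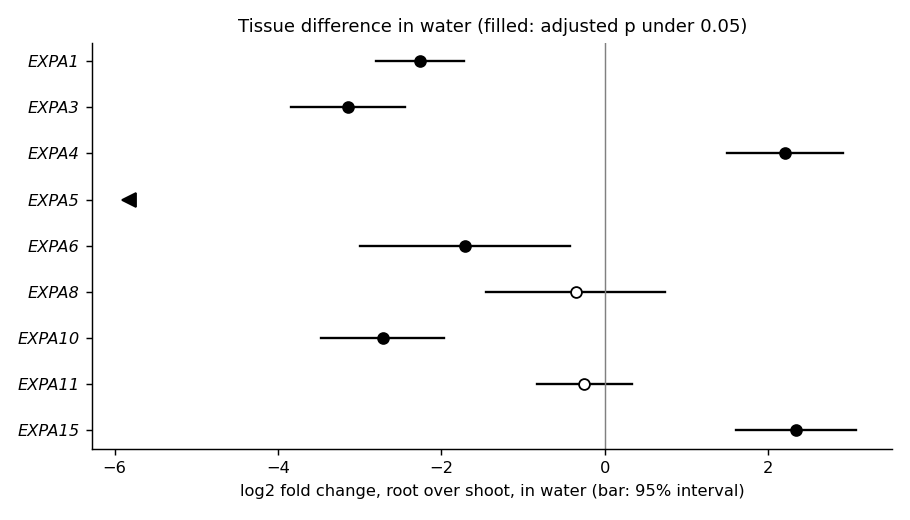
Log2 fold change of root over shoot in water for the 9 genes, with 95% intervals as bars and filled points where the adjusted p is under 0.05. The arrow for EXPA5 marks a bound, since root water had 0 counts. EXPA4 (2.21) and EXPA15 (2.35) lie right of 0, and EXPA3 (-3.14), EXPA10 (-2.72) and EXPA1 (-2.26) left of it.

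The log2 difference of root over shoot in water was 2.21 for EXPA4 (SE 0.343, adjusted p = 6.575e-06) and 2.35 for EXPA15 (SE 0.356, adjusted p = 4.727e-06). It was -3.14 for EXPA3 (adjusted p = 2.464e-08), -2.72 for EXPA10 (adjusted p = 7.858e-07) and -2.26 for EXPA1 (adjusted p = 6.173e-08). These 5 calls held without any 1 library. EXPA6 had a value of -1.71 (adjusted p = 0.0245), with 4.233, 22.06 and 4.252 CPM in root water, and lost its call without root water A (-1.42, adjusted p = 0.09037), root water C (-1.51, adjusted p = 0.07303) or shoot water A (-1.20, adjusted p = 0.1421). EXPA11 had -0.25 (interval -0.83 to 0.34) and EXPA8 -0.35 (interval -1.45 to 0.74).

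EXPA5 showed the sharpest contrast between tissues. It had 185 counts in the 3 shoot water libraries and 0 in the 3 root water libraries, which makes it at least 56.73-fold lower in root when 3 counts over the group are taken as the floor. Over all treatments it had 819 counts in 12 shoot libraries and 1 count in 12 root libraries, the latter in root PEG 3 h C. The bound covers counting error alone.

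Across the 8 groups EXPA1, EXPA3, EXPA8 and EXPA10 had all 4 shoot means above all 4 root means, and EXPA5 did so with root at or near 0. For EXPA8 this order is of means alone, since its root and shoot libraries in water overlapped and were not called different. The share of all genes with means so ordered was not counted. EXPA10 ran from shoot at 3 h (271.5 ± 27.34 CPM) through 2 h (128.5 ± 13.44), 1 h (96.28 ± 7.209) and water (25.6 ± 4.234) to the root groups between 3.329 and 8.296, which overlapped each other. EXPA4 and EXPA15 had all 4 root means above all 4 shoot means, and neighbouring groups within a tissue overlapped, except EXPA15 in shoot, where all 3 h libraries were above those of 2 h. EXPA6 ran from shoot water (30.52 CPM) and shoot at 2 h (21.08), which overlapped, through shoot at 3 h (11.65), root water (10.18), root at 1 h (8.817) and shoot at 1 h (6.882) to root at 3 h (5.496) and 2 h (3.973). Shoot at 3 h lay below shoot at 2 h without overlap, and from there on each group overlapped the next. EXPA8 ran from shoot at 3 h (6.372) to root at 1 h (1.326), and its 3 h shoot group did not overlap the next, shoot at 2 h (3.353). EXPA11 had its 3 shoot PEG means (38.7 to 57.41) above shoot water (17.96) and above the 4 root means (14.94 to 17.56), and shoot water overlapped the root groups.

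The 3 genes of the set with the highest mean counts were compared with all other genes by the correlation of log2(CPM + 1) over 24 libraries after the mean of each tissue was taken off. The values are descriptions, since the libraries share treatments and depth. Nearest to EXPA10 were DEAR3 (r = 0.949), NF-YB2 (0.942) and AT4G28140 (0.94). These 3 were closer in shoot alone (0.988, 0.977 and 0.992) than in root alone (0.76, 0.782 and 0.696). Nearest to EXPA1 were AT3G15630 (0.863), AT1G75810 (0.856) and DYL1 (0.847), and nearest to EXPA4 were HSD2 (0.873), ROC1 (0.873) and the beta-expansin EXPB3 (0.843). Those of EXPA1 were also closer in shoot (0.879, 0.925 and 0.883) than in root (0.854, 0.727 and 0.782). Those of EXPA4 were closer in root (0.923, 0.925 and 0.884) than in shoot (0.83, 0.791 and 0.775). Within the set, EXPA10 and EXPA11 (0.8) and EXPA3 and EXPA11 (0.785) were the closest pairs, and EXPA5 and EXPA15 (-0.624) the most opposed. EXPA5 had 1 count in root, so its value rests on the shoot libraries.

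No other expansin was called in shoot, and whether these genes differed from the 9 was not tested. Of the other alpha-expansins 4 were tested in shoot, and edgeR and DESeq2 each called 0 at every time, with log2 fold changes between -0.55 and 0.94. Of all genes 7.2%, 7.31% and 10.4% were called higher and 5.16%, 3.41% and 6.7% lower, so 0 calls in so short a list say little. At an unadjusted p under 0.05 there were 0, 2 (EXPA9 and EXPA20) and 0 at the 3 times. EXPA9 had 3.406 to 9.734 CPM in shoot water and 11.09 to 14.05 at 2 h, without overlap (log2 0.94, interval 0.18 to 1.69, adjusted p = 0.1216). Of 10 beta- and expansin-like genes 6 were in the table, 5 were tested in each tissue, and edgeR and DESeq2 each called 0. The shares of all genes are those above in shoot, and 0.472%, 0.185% and 0.226% in either direction in root. These 0 calls too say little about the list. EXPB3 at 2 h in shoot and EXLA2 at 3 h in root were the 2 with an unadjusted p under 0.05. In root 6 other alpha-expansins were tested, and EXPA7 and EXPA18, both of root hairs, were lower at 1 h, where 0.472% of all genes were called. EXPA7 had a mean of 25.98 ± 14.86 CPM in root water and 6.024 ± 0.5071 at 1 h (log2 -2.09, adjusted p = 0.04651). EXPA18 had 48.48 ± 20.25 and 10.9 ± 1.356 (SD, n = 3; log2 -2.13, adjusted p = 0.04123). EXPA18 lost its call without any 1 of the 6 libraries, with adjusted p from 0.05596 to 0.2294, and EXPA7 lost it without 5 of the 6, with the highest at 0.2341, and with library totals (0.1051). At 2 and 3 h edgeR called neither, both had an unadjusted p under 0.05, and DESeq2 called EXPA18 at 2 h and both at 3 h. The log2 fold change was -1.42 and -1.79 for EXPA7 and -1.62 and -1.99 for EXPA18 at these times.

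**Figure D4:**
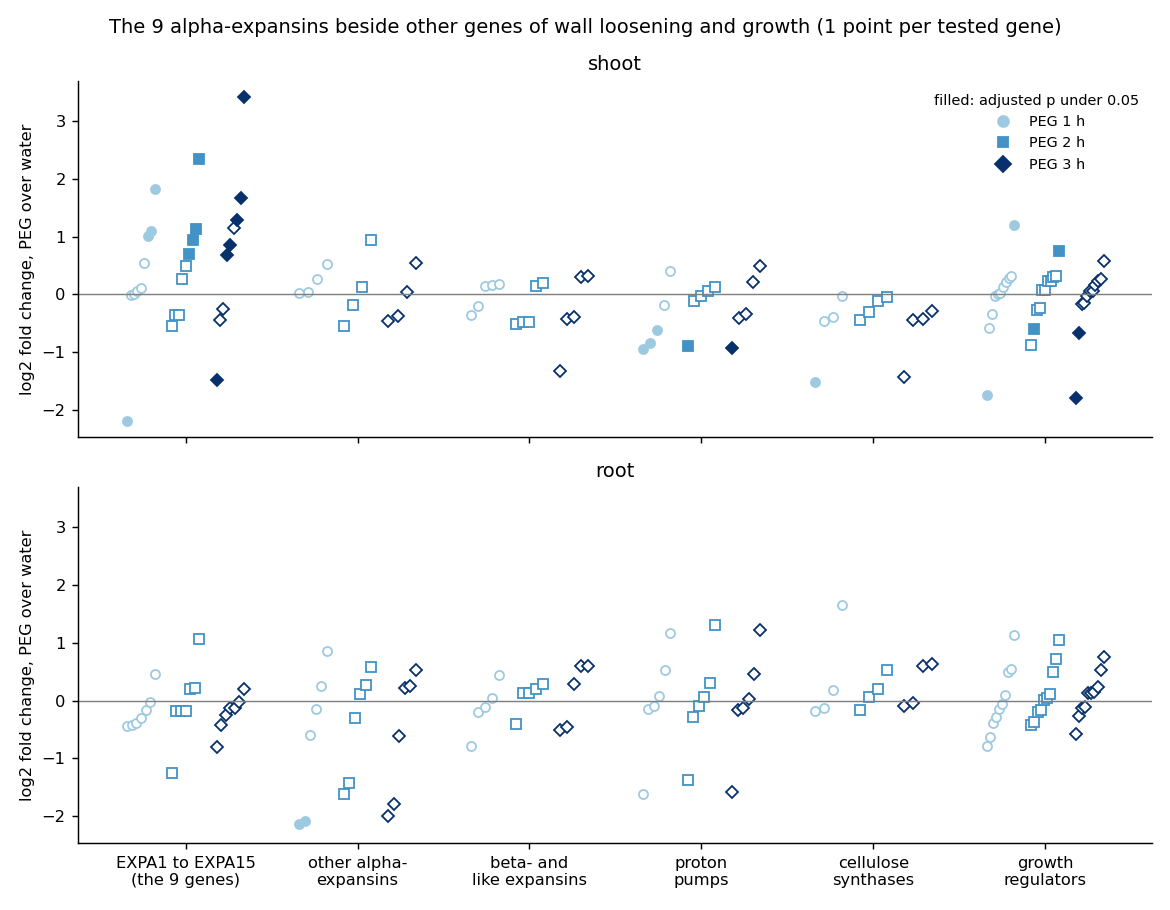
Log2 fold change of PEG over water for every tested gene of the set and of 5 lists, in shoot (top) and root (bottom), with 1 symbol per gene and filled symbols at an adjusted p under 0.05. In shoot the 9 alpha-expansins run from -2.19 (EXPA6 at 1 h, called lower) to 3.41 (EXPA10 at 3 h). Among the other lists in shoot, called proton pumps, CESA5, BRI1 and GAI are below 0, and IBH1 is above 0. In root the filled symbols are EXPA7 and EXPA18 at 1 h.

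Proton pumps, which acidify the wall, were lower in shoot where they were called. Of 11 listed, 8 were in the table and 5 were tested in shoot, with 3 lower at 1 h, 1 at 2 h and 1 at 3 h, and 0 higher, beside 5.16%, 3.41% and 6.7% of all genes called lower. Single calls at 2 and 3 h in a list of this length say little about it. Their median log2 fold change was -0.61, -0.02 and -0.34. AHA2 averaged 51.41 ± 7.946 CPM in water and 26.07 ± 6.992 at 3 h (SD, n = 3; log2 -0.93, adjusted p = 0.01007). AHA1 (-0.61, adjusted p = 0.02117) and AHA3 (-0.94, adjusted p = 0.03435) were lower at 1 h.

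No pump call held under every setting. In the fit of both tissues all 5 were lost, with adjusted p = 0.2492 for AHA1 and 0.1419 for AHA3, and 0.2766, 0.2005 and 0.1271 for AHA2 at 1, 2 and 3 h. AHA2 at 2 h was also lost with library totals (0.07027), and AHA3 with the letter as a block (0.07162). Without shoot water A the adjusted p was 0.05057 for AHA2 at 3 h, 0.1308 for AHA1 and 0.1651 for AHA3. AHA1 also lost its call without PEG 1 h A (0.0961), PEG 1 h C (0.05608) or water B (0.05711), and AHA3 without PEG 1 h A (0.1066) or water B (0.07968). AHA2 lost its 1 h call without PEG 1 h C (0.07047), water A (0.1275) or water B (0.07457), and its 2 h call without PEG 2 h B (0.0823), water A (0.07362) or water B (0.05734). In root 6 pumps were tested and edgeR called 0 at every time, beside 0.472%, 0.185% and 0.226% of all genes at 1, 2 and 3 h. AHA7 was the 1 pump with an unadjusted p under 0.05 there (-1.61 at 1 h, adjusted p = 0.124), and DESeq2 called it at 1 h (adjusted p = 0.01769) and 3 h.

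Among cellulose synthases of the primary wall, 4 of 6 listed were tested in shoot and 1, CESA5, was lower at 1 h (-1.52, adjusted p = 0.04711), a single call beside 5.16% of all genes. CESA5 had 41 counts in shoot water and 20 at 1 h, and its call was lost without PEG 1 h A (0.1488), PEG 1 h B (0.08363), water A (0.2732) or water B (0.09761), as adjusted p. DESeq2 (adjusted p = 0.06898), the fit of both tissues (adjusted p = 0.2022) and the letter block (adjusted p = 0.07268) did not call it. At 2 and 3 h edgeR and DESeq2 each called 0, beside 7.31% and 10.4% of all genes higher and 3.41% and 6.7% lower. At an unadjusted p under 0.05 there were 1 (CESA6) and 2 (CESA3 and CESA5). In root 4 were tested and both tools called 0, with CESA3 at 3 h the 1 gene at an unadjusted p under 0.05. Of all root genes edgeR called 0.472%, 0.185% and 0.226% at 1, 2 and 3 h.

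Of 18 growth regulators listed, 13 were in the table and 11 were tested in shoot, with 1 higher and 1 lower at 1 h, 1 and 1 at 2 h, and 0 and 2 at 3 h. These counts are near the share of all genes, 7.2% higher and 5.16% lower at 1 h, 7.31% and 3.41% at 2 h and 10.4% and 6.7% at 3 h, and say nothing of the list as a whole. IBH1, a repressor of cell elongation, averaged 17.74 ± 2.544 CPM in water and 43.05 ± 6.918 at 1 h (SD, n = 3), with no overlap and a log2 fold change of 1.20 (SE 0.197, adjusted p = 0.0004163). BRI1, the brassinosteroid receptor, fell from 14.3 ± 6.039 to 4.398 ± 1.177 CPM at 3 h (log2 -1.79, adjusted p = 0.01153), and GAI, a DELLA repressor of gibberellin responses, from 79.1 ± 11.96 to 49.53 ± 2.034 (log2 -0.68, adjusted p = 0.01024). The IBH1 call at 1 h held without any 1 library. BRI1 lost its 3 h call without PEG 3 h B (0.05859), PEG 3 h C (0.06839) or water A (0.06978), and GAI without PEG 3 h B (0.05341), PEG 3 h C (0.05625) or water B (0.05196), as adjusted p. The other calls counted here, BRI1 at 1 h and IBH1 and GAI at 2 h, were also lost without single libraries, with the highest adjusted p at 0.1039, 0.09829 and 0.1147. In the fit of both tissues IBH1 at 1 h alone of these was called, with adjusted p = 0.1078 and 0.08311 for BRI1 at 1 and 3 h, 0.3571 and 0.1984 for GAI at 2 and 3 h, and 0.09626 for IBH1 at 2 h. GAI at 2 h was also lost with library totals (0.07481). In root 10 were tested and edgeR and DESeq2 each called 0, with ARF6 the 1 gene at an unadjusted p under 0.05, at 1 and 3 h. Of all root genes edgeR called 0.472%, 0.185% and 0.226% at 1, 2 and 3 h.

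The authors' deposited table, made from the same counts, gives EXPA10 a log2 fold change of 3.43 at 3 h in shoot (adjusted p = 5.537e-31) when its sign is turned to PEG over water. In the authors' deposited table the 3 h adjusted p was 0.0946 for EXPA1, 0.2617 for EXPA6 and 0.2565 for EXPA15, and the value for EXPA3 was 0.3169 at 2 h and 0.3041 from 1 to 3 h. These 5 differences were called in the within-tissue fit and are not under 0.05 there.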

How the data were processed

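RNA of 24 samples, 12 shoot and 12 root, was read by MARS-seq. Every test here started from the raw counts of each gene in each library, as deposited by the authors. Its deposited log2 fold changes and adjusted p-values, per the file headers, cover named groups, and 9 of those comparisons were set beside the results, with the sign turned. Another 48 columns of per-sample values were not used. Tools named, per the submitters' processing notes, are STAR 2.4.2a, HTSeq, cutadapt, bcl2fastq and DESeq2. Build, annotation, strand and treatment of molecular identifiers: not given in the sources used here, so no positions or sequences are printed. Gene names came from a TAIR10.1 gene table, in which none of the 9 genes overlaps another. Groups follow the source names, since a tissue field reads root for every sample.

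With R 4.3.3 and edgeR 4.0.16, genes were filtered by filterByExpr, scaled by TMM and fitted with robust quasi-likelihood models, within a tissue for PEG (9207 shoot and 9751 root genes) and over 24 libraries for tissue contrasts (10967). Of the 9 genes all passed this filter in shoot and 7 in root. Standard errors are the log2 value over the root of F. P-values measure the spread between replicate pools of seedlings. Pairs of replicates differed by more than counting noise (chi-square per degree of freedom 2.295 to 35.31), so none were counted as 1. Intervals of 95% cover the replicate spread, and the floor of 3 counts covers counting error alone.

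Named genes were all 9 alpha-expansins, every other expansin called, the 3 genes of each further list with the smallest adjusted p per tissue, and the 3 nearest in pattern to the 3 alpha-expansins with most counts. Uncalled genes of the further lists are mostly given as counts. Other genes were named where a count of 5 or fewer fell outside the rule, after their values were seen. The genes of the set and the lists were chosen with earlier results of these data known. Alternatives were DESeq2 1.42.0, other scaling, no filter, replicate blocks, a joint fit and leaving out each library. The labels' protocols say that roots and shoots were separated after treatment, so the same letter within a treatment was taken as 1 pool; the deviations of such root and shoot libraries correlated by -0.205 to 0.133. The fits were checked on simulated counts.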

Additional observations from a re-analysis of the deposited data

Results flagged for a closer look

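Without a block, the change in root differed from that in shoot for 3 of the 9 alpha-expansins, counted over the PEG times. The test was of the difference itself, in 1 fit of all 24 libraries. The changes printed beside it for shoot and root are from the within-tissue fits, so they need not add up to it. At 1 h it called 1 of the 9, beside 1.09% of all genes lower and 0.237% higher. At 2 h it called 0, beside 1.2% in either direction. At 3 h it called 2, beside 2.02% lower and 0.574% higher. For EXPA10 at 3 h the difference was -3.53 on the log2 scale (edgeR quasi-likelihood, adjusted p = 0.0001171), with a change of 3.41 in shoot and -0.13 in root. For EXPA1 at 1 h it was -1.57 (adjusted p = 0.02554), with 1.10 in shoot and -0.38 in root. For EXPA11 at 3 h it was -1.48 (adjusted p = 0.03291), with 1.68 in shoot and 0.21 in root. With root and shoot of 1 pool as a block EXPA10 alone was called, and the adjusted p was 0.1116 for EXPA1 and 0.07836 for EXPA11. The EXPA1 call was also lost without 5 of 12 libraries in turn and with library totals, and the EXPA11 call without 11 of 12, with library totals, without the filter on low counts and with the letter as a block. The water libraries of each tissue enter all 3.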

How the results depend on the processing

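No called value of the 9 alpha-expansins changed sign under the settings run. Counts of all genes called moved by over 1.5 times as follows. DESeq2 gave 341 genes for the tissue difference at 1 h (146 as reported), 193, 104 and 115 in root at 1, 2 and 3 h (46, 18 and 22), 343 in shoot from 1 to 2 h (156), with 2 of the 9, and 79 from 2 to 3 h (39). A joint fit gave 226, 100 and 111 in root, 488, 554 and 914 in shoot against water (1138, 987 and 1572), and 1, 114 and 11 between PEG times (1 to 2 h, 1 to 3 h, 2 to 3 h). Of the 9 it called 3 at 3 h, 1 from 1 to 3 h and 0 from 2 to 3 h. Library totals gave 76 genes and 0 of the 9 for the tissue difference at 1 h, 1 of the 9 at 3 h, and 449 genes and 2 of the 9 from 1 to 2 h. Without the filter 261 genes were called from 1 to 2 h and 1 of the 9 differed between tissues at 3 h. Treating the letter as a replicate block gave 44 genes from 1 to 2 h and 1 of the 9 for the tissue difference at 3 h, and lost EXPA6 (adjusted p = 0.06205) and EXPA15 (0.06182) at 3 h. Treating root and shoot of 1 pool as a replicate block gave 59 and 64 genes for the tissue difference at 1 and 2 h (146 and 132), with 0 of the 9 at 1 h and 1 at 3 h. Across treatments the labels do not tie a letter, and same-letter correlations ran from -0.296 to 0.1 in shoot (1 of 18 over 0.1) and from -0.502 to 0.64 in root (9 of 18 over 0.1, median 0.082, against -0.047 for other letters). As a hint from the data, 10 of 12 root and 0 of 12 shoot libraries were closest to their own letter. The cause of these moves was not tested.

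Leaving out 1 library gave 47 to 238 and 64 to 121 genes for the tissue difference at 1 and 2 h, 1 to 43, 0 to 3 and 0 to 14 in root at 1, 2 and 3 h, 606 to 1338 in shoot at 1 h, and 18 to 303, 248 to 487 and 18 to 28 between PEG times in the same order. Of the 9 it gave 0 to 1 and 1 to 2 for the tissue difference at 1 and 3 h, 0 to 1 from 1 to 2 h, 1 to 3 from 1 to 3 h, and 3 to 6 at 3 h.

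Library totals raised the median of all genes in root from 0.128, 0.061 and 0.107 to 0.414, 0.264 and 0.289, in the tissue difference at 1, 2 and 3 h to 0.518, 0.188 and 0.379, in shoot from 1 to 2 h to 0.168 and in water to 0.284. From 2 to 3 h in shoot the median was -0.118 and from 1 to 3 h in root -0.124. The share of calls that were higher went from 17.8, 20.5 and 22.1% to 42.1, 31.4 and 36.9% in the tissue difference, from 50.9 to 62.3% in water, from 34.8 to 48.5% in root at 1 h, from 58.3 to 49.6% in shoot at 1 h (83.8% in the joint fit), and in shoot from 75.6 to 90.2% (1 to 2 h) and 92.3 to 81.8% (2 to 3 h).

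Values that were not called changed sign as follows. Library totals gave 0.21 for CESA1, 0.31 for EXPA11, 0.024 for EXPA3 and 0.27 for EXPA6 in root at 1 h, 0.09 for EXPA1, 0.097 for EXPA15 and 0.018 for EXPA4 at 2 h, and 0.081 for EXPA1, 0.089 for EXPA10 and 0.22 for EXPA3 at 3 h. They gave 0.03 for EXPA11 in root over shoot, 0.24 for EXPA4 in the tissue difference at 3 h, 0.028 for EXPA1 from 1 to 2 h in shoot, and -0.011 and -0.003 for EXPA4 in shoot at 1 h and from 2 to 3 h. EXPA5 in shoot at 1 h was 0.001 with DESeq2, 0.073 in the joint fit and 0.005 without the filter, and EXPA8 was 0.052 and 0 in the last 2. The letter block gave 0.006 for EXPA11 at 1 h and 0.034 for EXPA3 at 3 h in root. EXPA4 in the tissue difference at 3 h was 0.009 with it, 0.044 without the filter and 0.026 with the pool block.

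Leaving out 1 library gave, in root, CESA1 -0.27 to 0.04, EXPA11 -0.24 to 0.28, EXPA15 -0.77 to 0.18, EXPA3 -0.63 to 0.01 and EXPA6 -1.27 to 0.99 at 1 h. At 2 h it gave EXPA1 -0.42 to 0.20, EXPA15 -0.47 to 0.45, EXPA3 -0.22 to 0.52 and EXPA4 -0.69 to 0.21, and at 3 h EXPA1 -0.37 to 0.24, EXPA10 -0.49 to 0.063, EXPA15 -0.74 to 0.19, EXPA3 -0.31 to 0.30, EXPA4 -0.50 to 0.14 and EXPA6 -1.21 to 0.36. In shoot it gave EXPA15 -0.13 to 0.36, EXPA4 -0.11 to 0.28, EXPA5 -0.32 to 0.19 and EXPA8 -0.36 to 0.23 at 1 h, and EXPA6 -0.84 to 0.13 and EXPA8 -0.11 to 0.50 at 2 h. Between times it gave EXPA1 -0.24 to 0.007 and EXPA11 -0.10 to 0.44 from 1 to 2 h, and EXPA4 -0.013 to 0.27 and EXPA5 -0.27 to 0.088 from 2 to 3 h. In the tissue difference it gave EXPA4 -0.28 to 0.62 and EXPA6 -1.26 to 0.51 at 2 h, and EXPA4 -0.22 to 0.39 at 3 h. Not all of these lay near 0 with every library in. EXPA6 stood at -0.80 in root at 3 h, -0.55 in shoot at 2 h and -0.69 in the tissue difference at 2 h. Depth limits EXPA8, with 76 root counts, and EXPA5 in root, with 1.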
